A study of Mus musculus with 6 samples.

Results

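Forebrain regional transcription factors are DNA-binding proteins whose expression marks where in the forebrain a cell lies or arose. The set holds 34 named genes, each matched by symbol to a row of the count table, of 33274 rows in all, and every symbol had 1 row. They were placed in groups by the region of the adult brain in which each is best known: 9 in the pallium, which includes the cerebral cortex, 8 in inhibitory interneurons, 7 in the striatum, 3 in the amygdala, 2 in the hypothalamus and 5 in the thalamus and septum. Many of them are expressed in more than 1 region, so the group names are labels of best-known expression and not of origin in these samples.

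The libraries came from the cerebral cortex of wild type female mice of the outbred ICR stock at 6 weeks of age, and the animals themselves were not dosed. Their grandsires had received methylphenidate, a blocker of dopamine and noradrenaline reuptake, injected under the skin on 21 days in a row at 15 mg/kg, or saline in its place at 10 mL/kg, and were then paired with undosed females. A single male of each F1 litter was paired with an undosed female to give the F2 animals. Each lineage, saline and methylphenidate, had 3 libraries, with total counts of 23896752 to 28120640. Which animals had a grandsire or a litter in common is not stated in the labels, so each p-value covers the spread among these 6 libraries and nothing beyond.

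In the developing forebrain these factors divide the tissue into territories. Emx1, Emx2, Lhx2 and Pax6 act in the pallium, from which excitatory cortical neurons come. The Dlx genes, Nkx2-1 and Lhx6 act in the ganglionic eminences below it, from which striatal projection neurons and cortical interneurons come. Some persist in adult neurons of 1 region, and so a cortical sample that holds tissue from below the cortex can carry their transcripts. In bulk tissue, more cells of a type and more RNA per cell cannot be told apart.

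A cortical marker was read beside the tissue label. Slc17a7, the vesicular glutamate transporter of cortical excitatory neurons, lay at 1020 to 1249 CPM (counts scaled to a common library total by the trimmed mean of M-values) over the 6 libraries, and so was present in each of them. Its presence alone does not tell how much other tissue a library held. Slc17a7 was 1 of 14 tested cortical excitatory markers. Of these, 5 had a log2 fold change, methylphenidate minus saline, above 0 and 9 below, with a median of -0.08. In 1 of them all 3 methylphenidate libraries lay above all 3 saline libraries, and in 3 all lay below. The shares over all genes tested were 6.97% above and 6.51% below. Markers of other regions and of the choroid plexus also varied between libraries. The summed level of 7 choroid plexus markers was 45.7 to 664 CPM in the saline and 26.2 to 507.4 CPM in the methylphenidate lineage. Its part in the results below was not tested.

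Of the 34 factors, 32 passed the filter on low counts, and Otp and Sim1, the hypothalamic pair, did not. Between genes, levels were compared per kilobase of annotated exon. Averaged over the 6 libraries, Nr2f1, an area-patterning nuclear receptor of the cortex, had the highest level at 19.9 CPM per kb, followed by the LIM homeobox gene Lhx2 at 15.5 and the pallial homeobox gene Emx1 at 10.4 CPM per kb. Thus the 5 highest of the set, with Tshz3 at 8.52 and Tshz2 at 7.92 CPM per kb, were all of the pallial group. Foxp1 and Meis2 led the striatal group at 6.82 and 5.01 CPM per kb, and both are also expressed in cortical neurons. The lowest levels among the factors tested were those of Nkx2-1, at 0.191 CPM per kb, Zic4 at 0.261 and Meis1 at 0.292 CPM per kb.

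**Figure D1:**
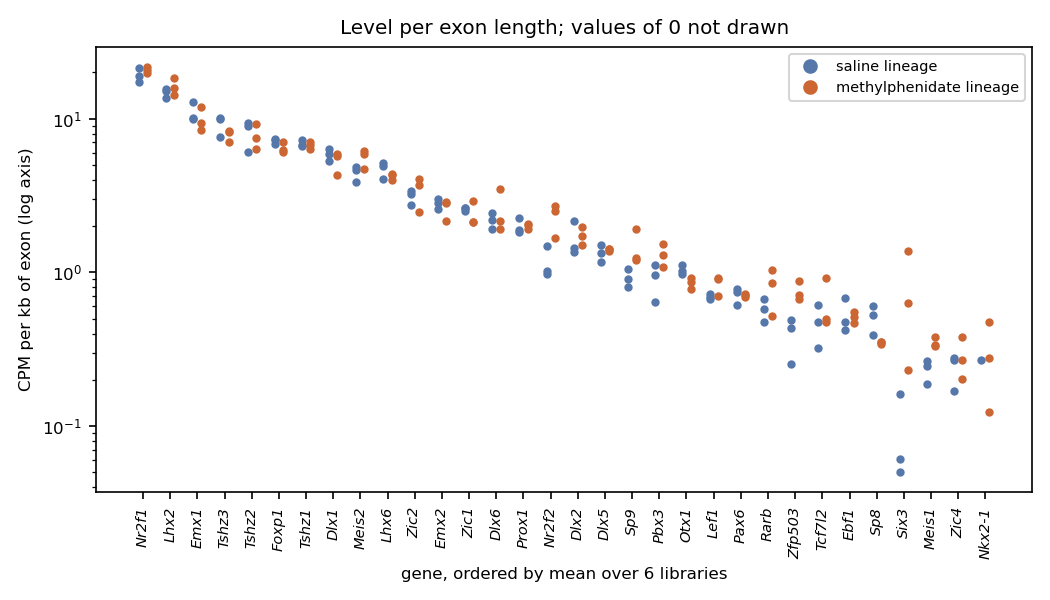
Level of each of the 32 tested factors in CPM per kb of exon (log axis), with 1 point per library (blue saline, orange methylphenidate lineage), ordered by the mean over 6 libraries. The pallial factors Nr2f1, Lhx2 and Emx1 stand at the left above 8 CPM per kb in every library, and Six3 shows the widest separation of the lineages.

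No factor passed the threshold for a difference between the lineages, an adjusted p of 0.05 over the 18327 genes tested with edgeR's quasi-likelihood test, which 0.0273% of all genes passed. The smallest edgeR adjusted p of the set was 0.226. At an unadjusted p under 0.05 there were 7 factors higher in the methylphenidate lineage, or 21.9% of the 32 tested, and 0 lower, where 4.20% of all genes tested were higher and 3.31% lower. These 7 were Six3, Nr2f2, Zfp503, Sp9, Meis2, Meis1 and Pbx3. Six3 passed the filter on low counts only with counts of the methylphenidate libraries. The set was also chosen with earlier results of these data known, so the share of 21.9% is a description and not a test. In 5 factors all 3 methylphenidate libraries lay above all 3 saline libraries, and in 2 all lay below, where 6.97% and 6.51% of all genes tested did so. The median log2 fold change, methylphenidate minus saline, was 0.09 over the 32 factors, and that of all genes tested was 0.00. DESeq2, used as an alternative, called 2 factors, Six3 (DESeq2 adjusted p = 9.69e-05) and Nr2f2 (DESeq2 adjusted p = 0.000823), both higher in the methylphenidate lineage, where it called 0.863% of all genes. With limma-voom and edgeR, the latter without any 1 library or with other scalings or filters, 0 factors passed.

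**Figure D2:**
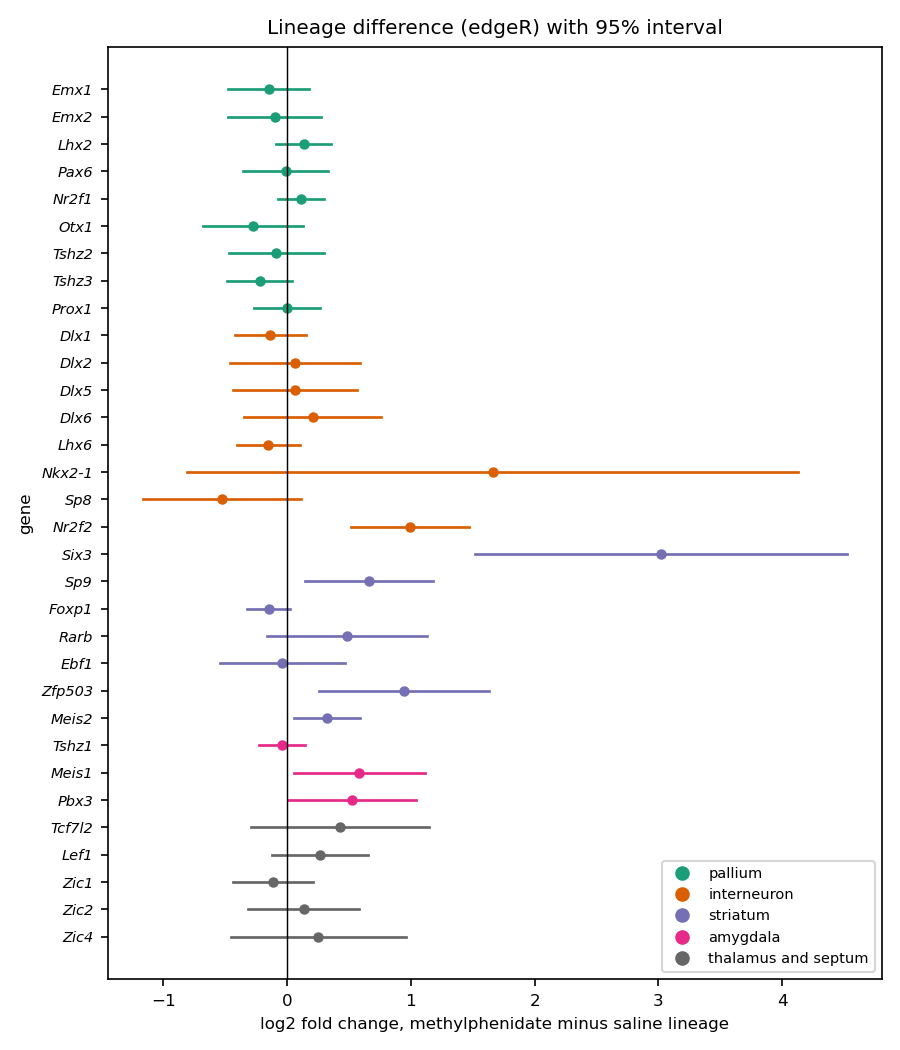
Log2 fold change (methylphenidate minus saline lineage) of the 32 tested factors from edgeR, with the 95% interval of each fitted value before adjustment for multiple tests, coloured by region. The 7 intervals that lie wholly above 0 belong to Nr2f2, Six3, Sp9, Zfp503, Meis2, Meis1 and Pbx3, and the other 25 span 0.

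The striatal group held 4 of those 7 factors. Its median log2 fold change was 0.48 over 7 factors, 5 of them above 0 and 2 below. The median was 0.26 without methylphenidate replicate 3 and 0.72 without methylphenidate replicate 1.

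Six3 (ENSMUSG00000038805) encodes a homeobox factor that acts in the early anterior brain and eye and, later, in striatal projection neurons of the indirect pathway. Its counts were 23, 7 and 8 in saline replicates 1 to 3 against 182, 36 and 83 in methylphenidate replicates 1 to 3. In CPM these were 0.876, 0.273 and 0.331 against 7.54, 1.26 and 3.42. The groups did not overlap, and the 3 methylphenidate libraries themselves spanned 5.96-fold. The means were 0.493 ± 0.332 and 4.07 ± 3.19 CPM (SD, n = 3 per group), a log2 fold change of 3.02 (s.e., the standard error, 0.67, adjusted p by edgeR = 0.236). It was 2.22 without methylphenidate replicate 1 and 3.73 without saline replicate 1, with edgeR adjusted p of 0.404 and 0.340. Six3os1, a noncoding transcript on the opposite strand that overlaps Six3, had 21, 13 and 9 counts in the saline and 92, 12 and 53 in the methylphenidate libraries (fitted log2 fold change 1.91, s.e. 0.68, adjusted p by edgeR = 0.585). Both transcripts were highest in methylphenidate replicate 1 and next in replicate 3, while Six3os1 in replicate 2 lay within the saline range. Whether the counting used strand is not given in the sources, so reads of the overlapping stretch cannot be assigned to either.

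Sp9, a zinc finger factor that indirect pathway neurons of the striatum need, had 4.57, 5.27 and 4.05 CPM in the saline libraries and 6.05, 6.25 and 9.72 CPM in the methylphenidate libraries. Its groups did not overlap, and methylphenidate replicate 3 stood above the others. The log2 fold change was 0.66 (s.e. 0.23, adjusted p by edgeR = 0.563), and 0.41 without methylphenidate replicate 3. Zfp503, a zinc finger repressor of the developing striatum also called Nolz1, had 2.06, 1.84 and 1.08 CPM in the saline libraries and 3.73, 3.02 and 2.84 CPM in the methylphenidate libraries. Again the groups did not overlap, with a log2 fold change of 0.94 (s.e. 0.31, adjusted p by edgeR = 0.540). Meis2, a homeobox factor of the TALE class that is strong in striatal neurons and present in cortex, had 46.3, 58.6 and 55.9 CPM in the saline libraries and 70.6, 56.6 and 74.1 CPM in the methylphenidate libraries. Methylphenidate replicate 2 lay within the saline range and the other two lay above it (fitted log2 fold change 0.32, s.e. 0.12, adjusted p by edgeR = 0.602).

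The other 3 striatal factors did not reach an unadjusted p under 0.05. Rarb, a retinoic acid receptor of striatal neurons, had 2.51, 3.55 and 3.02 CPM in the saline libraries and 2.73, 4.50 and 5.48 CPM in the methylphenidate libraries, so only methylphenidate replicates 2 and 3 lay above the saline range. Its log2 fold change was 0.48 (s.e. 0.29, 95% interval -0.16 to 1.13). Foxp1, a forkhead factor of striatal projection neurons and of cortical layers, was the most abundant striatal factor by CPM. It had 100.2, 93.4 and 102.1 CPM in the saline libraries and 97.3, 83.8 and 85.6 CPM in the methylphenidate libraries, with a log2 fold change of -0.15 (s.e. 0.08, 95% interval -0.32 to 0.02). Ebf1, which acts in direct pathway neurons and is also expressed in vascular mural cells, had a log2 fold change of -0.04 (s.e. 0.22), with 4.10 to 6.62 CPM in the saline and 4.57 to 5.39 CPM in the methylphenidate libraries. The 3 factors thus overlapped between the lineages.

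**Figure D3:**
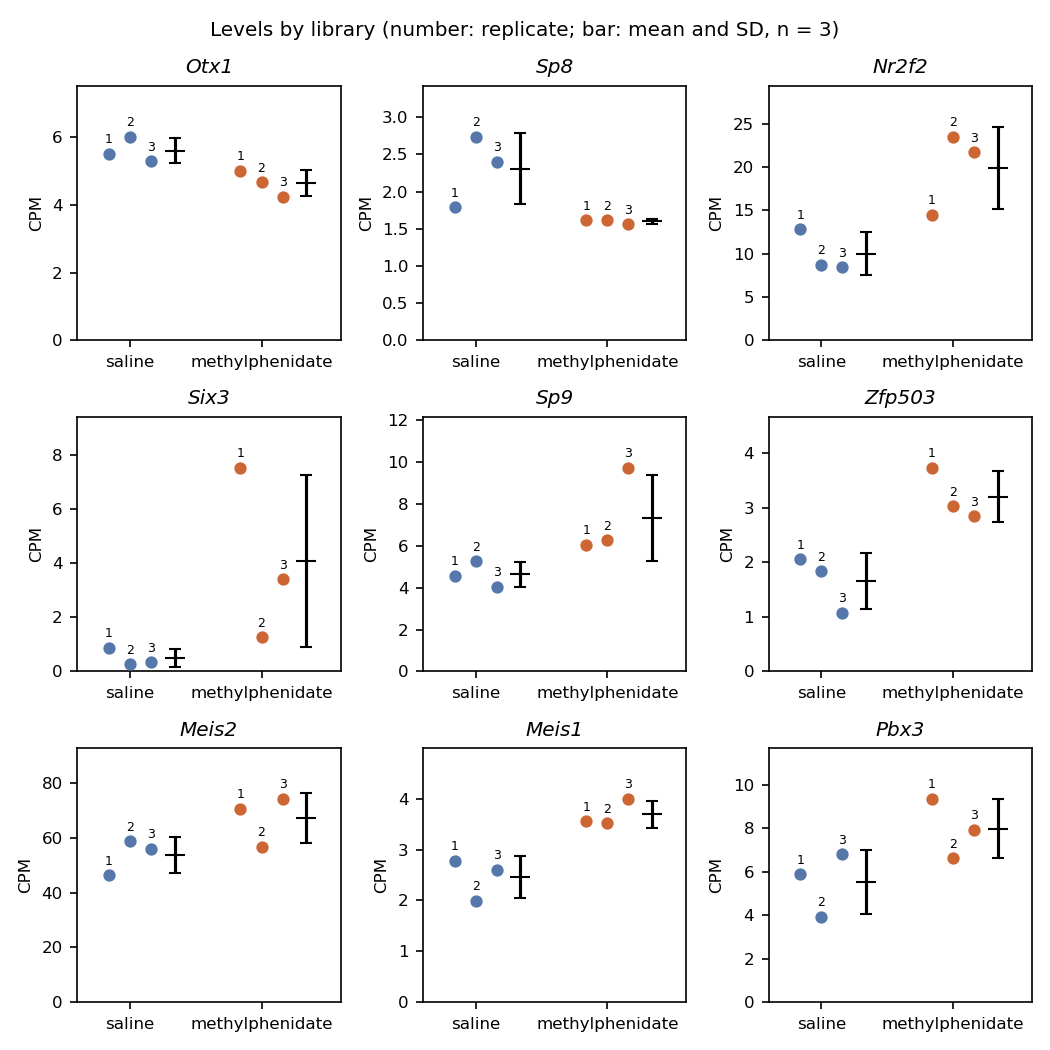
CPM of the 9 factors with non-overlapping groups or an unadjusted p under 0.05, by lineage, with each point labelled by its replicate number and a bar for the mean and SD (n = 3), on axes that start at 0. Six3 in methylphenidate replicate 1 reached 7.54 CPM, while Meis2 and Pbx3 overlapped between the lineages, and Otx1 and Sp8 were lower in all 3 methylphenidate libraries.

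Among the interneuron factors the largest fitted difference with non-overlapping groups was that of Nr2f2 (ENSMUSG00000030551), a nuclear receptor also called COUP-TFII that marks interneurons of the caudal ganglionic eminence and is also expressed in the amygdala and in venous endothelium. It had 12.8, 8.75 and 8.44 CPM in saline replicates 1 to 3 against 14.5, 23.5 and 21.7 CPM in methylphenidate replicates 1 to 3. All 3 methylphenidate libraries lay above the saline libraries, with replicate 1 close to saline replicate 1. The means were 10.0 ± 2.45 and 19.9 ± 4.75 CPM, a log2 fold change of 0.99 (s.e. 0.21, adjusted p by edgeR = 0.226). Leaving out 1 library at a time gave 0.85 to 1.21, with edgeR adjusted p of 0.107 to 0.630. The summed level of 9 endothelial and pericyte markers, measured beside it, was 375.3 to 410.5 CPM in the saline lineage. In the methylphenidate lineage it was 354.3 to 386.6 CPM. Of the 9, 1 lay above and 3 below without overlap, where 6.97% and 6.51% of all genes tested did. Cldn5 had a log2 fold change of 0.40 (s.e. 0.15) and Flt1 one of -0.26 (s.e. 0.07). The sum does not separate vessel types, and a vascular share of Nr2f2 was not tested.

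The set holds Sp8 and Prox1 as further factors of interneurons from the caudal ganglionic eminence, and their fitted values were negative or near 0. Sp8, a zinc finger factor of those interneurons and of the olfactory bulb, had 1.79, 2.73 and 2.40 CPM in the saline libraries and 1.61, 1.62 and 1.56 CPM in the methylphenidate libraries. The methylphenidate values lay closely together and below all saline values, with a log2 fold change of -0.53 (s.e. 0.28, adjusted p by edgeR = 0.737). Prox1, a homeobox factor of hippocampal dentate granule cells and of the same interneurons, listed here with the pallium, had means of 16.8 ± 2.03 and 16.8 ± 0.722 CPM. Its log2 fold change was 0.00 (s.e. 0.12, 95% interval -0.26 to 0.27). Of 13 tested interneuron markers outside the set, not split by origin, 8 had a fold change above 0 and 5 below. Their median log2 fold change was 0.04. Without overlap, 1 lay above and 2 below, where 6.97% and 6.51% of all genes tested did.

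The Dlx genes lie as the neighbouring pairs Dlx1 and Dlx2 and Dlx5 and Dlx6, and their products drive the development of inhibitory neurons. Dlx1, the most abundant by CPM, had 28.6, 34.02 and 31.6 CPM in the saline libraries and 23.2, 30.8 and 31.8 CPM in the methylphenidate libraries (fitted log2 fold change -0.13, s.e. 0.13). Dlx2 and Dlx5 had log2 fold changes of 0.07 (s.e. 0.23) and 0.07 (s.e. 0.22). Dlx6 had 4.53 to 5.79 CPM in the saline libraries and 4.51, 5.13 and 8.23 CPM in methylphenidate replicates 1 to 3, with a log2 fold change of 0.21 (s.e. 0.25) that became -0.10 without replicate 3. All 4 Dlx genes overlapped between the lineages. The antisense transcripts Dlx1as and Dlx6os1, which overlap Dlx1 and Dlx6, had log2 fold changes of 0.08 (s.e. 0.17) and 0.19 (s.e. 0.10).

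Lhx6, a LIM homeobox factor that stays on in parvalbumin and somatostatin interneurons, had 24.6, 23.7 and 19.3 CPM in the saline libraries and 19.2, 21.1 and 20.6 CPM in the methylphenidate libraries. The groups overlapped, with a log2 fold change of -0.15 (s.e. 0.11, 95% interval -0.41 to 0.10). Nkx2-1, which precedes Lhx6 in the medial ganglionic eminence and persists in the adult hypothalamus and in cholinergic neurons of the basal forebrain, was near the limit of detection. It had 20, 0 and 0 counts in saline replicates 1 to 3 against 19, 10 and 33 counts in methylphenidate replicates 1 to 3. With 0 counts, up to 3 remain possible, or 0.117 and 0.124 CPM in saline replicates 2 and 3, for counting error only. Saline replicate 1 lay between the methylphenidate libraries, so the groups overlapped, and the fitted log2 fold change of 1.66 (s.e. 1.10, 95% interval -0.81 to 4.13) ran from 1.09 to 7.40 as 1 library at a time was left out. Over the 8 interneuron factors the median log2 fold change was 0.07.

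In the amygdala group Meis1, a TALE homeobox factor and paralogue of Meis2, had 2.78, 1.99 and 2.61 CPM in the saline libraries and 3.56, 3.51 and 3.99 CPM in the methylphenidate libraries. The groups did not overlap (fitted log2 fold change 0.58, s.e. 0.24, adjusted p by edgeR = 0.630). Pbx3, a partner of Meis proteins on DNA, had 5.90, 3.94 and 6.82 CPM in the saline libraries and 9.36, 6.64 and 7.95 CPM in the methylphenidate libraries. Methylphenidate replicate 2 lay just below saline replicate 3, and the log2 fold change was 0.52 (s.e. 0.23, adjusted p by edgeR = 0.660). Tshz1, a zinc finger factor of the intercalated cells of the amygdala that is also expressed in cortex, had 42.8, 39.5 and 38.7 CPM in the saline libraries and 37.1, 41.2 and 39.3 CPM in the methylphenidate libraries. It was among the least variable factors, with a log2 fold change of -0.04 (s.e. 0.08, 95% interval -0.23 to 0.15).

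The promoters of Six3, Nr2f2 and Sp9 are shown, 3 of the 5 factors with all methylphenidate libraries above all saline libraries. Zfp503 and Meis1 also met this rule and are not shown. Each run is the 250 bases before the RefSeq transcript start in GRCm38.p6, written 5′ to 3′ on the strand of the gene. Capitals mark TGACAG, the core bound by TALE factors such as Meis, the homeodomain core TAATTA, or the GC box GGGCGG bound by Sp factors, each searched on both strands.
Six3 chr17:85620584-85620833 (+ strand): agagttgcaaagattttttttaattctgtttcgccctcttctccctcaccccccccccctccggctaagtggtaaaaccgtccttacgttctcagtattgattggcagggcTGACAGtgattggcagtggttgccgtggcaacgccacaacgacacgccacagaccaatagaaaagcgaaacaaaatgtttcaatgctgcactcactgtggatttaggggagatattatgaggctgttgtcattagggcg
Nr2f2 chr7:70366747-70366996 (- strand): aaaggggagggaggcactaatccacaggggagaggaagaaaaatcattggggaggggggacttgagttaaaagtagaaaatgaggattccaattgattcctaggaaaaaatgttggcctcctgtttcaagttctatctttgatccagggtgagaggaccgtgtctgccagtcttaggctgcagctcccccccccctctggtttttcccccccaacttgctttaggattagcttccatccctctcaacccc
Sp9 chr2:73271676-73271925 (+ strand): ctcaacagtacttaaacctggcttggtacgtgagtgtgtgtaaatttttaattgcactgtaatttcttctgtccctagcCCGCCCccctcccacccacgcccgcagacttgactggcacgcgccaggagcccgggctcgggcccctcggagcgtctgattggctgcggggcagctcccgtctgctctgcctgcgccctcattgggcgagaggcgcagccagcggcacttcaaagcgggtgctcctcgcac

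In these windows Six3 held 1 TGACAG and no other motif searched, Sp9 held 1 GC box, on the opposite strand, and Nr2f2 held no match. The windows of Zfp503 and Meis1, not shown, also held no match. TGACAG was found in 15.9% of 32851 RefSeq promoter windows of the same length, TAATTA in 4.84% and the GC box in 32.7%. Of the 34 factors, 28 had promoter entries, which gave 43 windows, some of them overlapping and many from the same gene. TGACAG occurred in 6 of these windows, TAATTA in 2 and the GC box in 22. No match of 1 motif overlapped a match of another in the runs shown. A match is a description of sequence only, and binding was not measured.

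The 9 pallial factors had a median log2 fold change of -0.09, with 3 above 0 and 6 below, and 0 at an unadjusted p under 0.05. Nr2f1, also called COUP-TFI, had 96.7, 108.1 and 88.1 CPM in the saline libraries and 101.2, 105.1 and 109.9 CPM in the methylphenidate libraries (fitted log2 fold change 0.11, s.e. 0.08, 95% interval -0.07 to 0.30). Lhx2, which specifies pallial identity and persists in upper-layer neurons and astrocytes, had 66.3, 68.5 and 59.8 CPM in the saline libraries and 62.7, 70.0 and 80.9 CPM in the methylphenidate libraries. Its highest library was methylphenidate replicate 3, and its log2 fold change was 0.13 (s.e. 0.10). Emx1, expressed in cortical excitatory neurons, had 22.2, 27.8 and 21.8 CPM in the saline libraries and 20.5, 25.8 and 18.4 CPM in the methylphenidate libraries. The groups overlapped in all 3 genes.

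Otx1, a homeobox factor of deep-layer cortical neurons, was the only pallial factor whose groups did not overlap. It had 5.52, 6.01 and 5.29 CPM in the saline libraries and 5.01, 4.67 and 4.24 CPM in the methylphenidate libraries. The separation was narrow, and the log2 fold change of -0.27 (s.e. 0.18, adjusted p by edgeR = 0.787) had a 95% interval of -0.68 to 0.13. Tshz3, a zinc finger factor of cortical projection neurons to the striatum, had a log2 fold change of -0.22 (s.e. 0.12), and its paralogue Tshz2, which marks near-projecting deep-layer neurons, one of -0.09 (s.e. 0.17). Tshz2 varied 1.54-fold within the saline lineage and 1.45-fold within the methylphenidate lineage. Emx2 and Pax6, pallial patterning factors that remain in astrocytes and progenitor zones of the adult brain, had log2 fold changes of -0.10 (s.e. 0.17) and -0.01 (s.e. 0.15). The range of Pax6 was 7.19 to 9.10 CPM in the saline and 8.03 to 8.40 CPM in the methylphenidate lineage.

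The hypothalamic factors Otp and Sim1, which together specify neuroendocrine neurons and are also expressed in the medial amygdala, had too few counts to be tested. Otp had 0, 4 and 0 counts in saline replicates 1 to 3 against 2, 22 and 4 counts in methylphenidate replicates 1 to 3. Methylphenidate replicate 2 thus held most of its counts. Sim1 had 0 counts in each saline library and 4, 2 and 0 in methylphenidate replicates 1 to 3. With 0 counts, a level remains possible of up to 0.114 to 0.124 CPM in the 4 libraries without Sim1, for counting error only, so a difference in Sim1 was not detectable at this depth.

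The thalamic and septal group had a median log2 fold change of 0.25 over 5 factors, 4 of them above 0, which became 0.05 without methylphenidate replicate 1. That library was the highest of the 6 for 4 of the 5 factors, Tcf7l2, Lef1, Zic1 and Zic4, where it was the highest for 15.6% of all genes tested. Tcf7l2, the effector of Wnt signalling that thalamic neurons and newly formed oligodendrocytes express, had 5.37, 4.18 and 2.81 CPM in the saline libraries and 8.12, 4.36 and 4.16 CPM in methylphenidate replicates 1 to 3. Only methylphenidate replicate 1 lay above the saline range, and the log2 fold change of 0.42 (s.e. 0.32) was 0.05 without it. Lef1, a related Wnt effector of thalamic neurons and of endothelium, had 6.40, 5.94 and 6.12 CPM in the saline libraries and 8.07, 7.94 and 6.18 CPM in the methylphenidate libraries. Its values in methylphenidate replicates 1 and 2 lay above the saline range, with a log2 fold change of 0.27 (s.e. 0.17).

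The Zic genes encode zinc finger factors of the septum, medial thalamus and meninges, and Zic1 and Zic4 are neighbours on opposite strands. Zic1 had 14.3, 14.9 and 15.0 CPM in the saline libraries and 16.6, 12.1 and 12.1 CPM in methylphenidate replicates 1 to 3, so methylphenidate replicate 1 was the highest and the other two the lowest. Its log2 fold change was -0.11 (s.e. 0.15). Zic2 had 9.25, 9.73 and 7.90 CPM in the saline libraries and 10.6, 11.7 and 7.08 CPM in the methylphenidate libraries (fitted log2 fold change 0.13, s.e. 0.20). Zic4 had 1.76 to 2.85 CPM in the saline and 3.93, 2.77 and 2.10 CPM in the methylphenidate libraries (fitted log2 fold change 0.25, s.e. 0.32). Zic2 and Zic4 were lowest of the methylphenidate lineage in replicate 3. The summed level of 7 meningeal markers was 97.0, 133 and 74.6 CPM in methylphenidate replicates 1 to 3 and 96.0 to 108.6 CPM in the saline lineage.

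**Figure D4:**
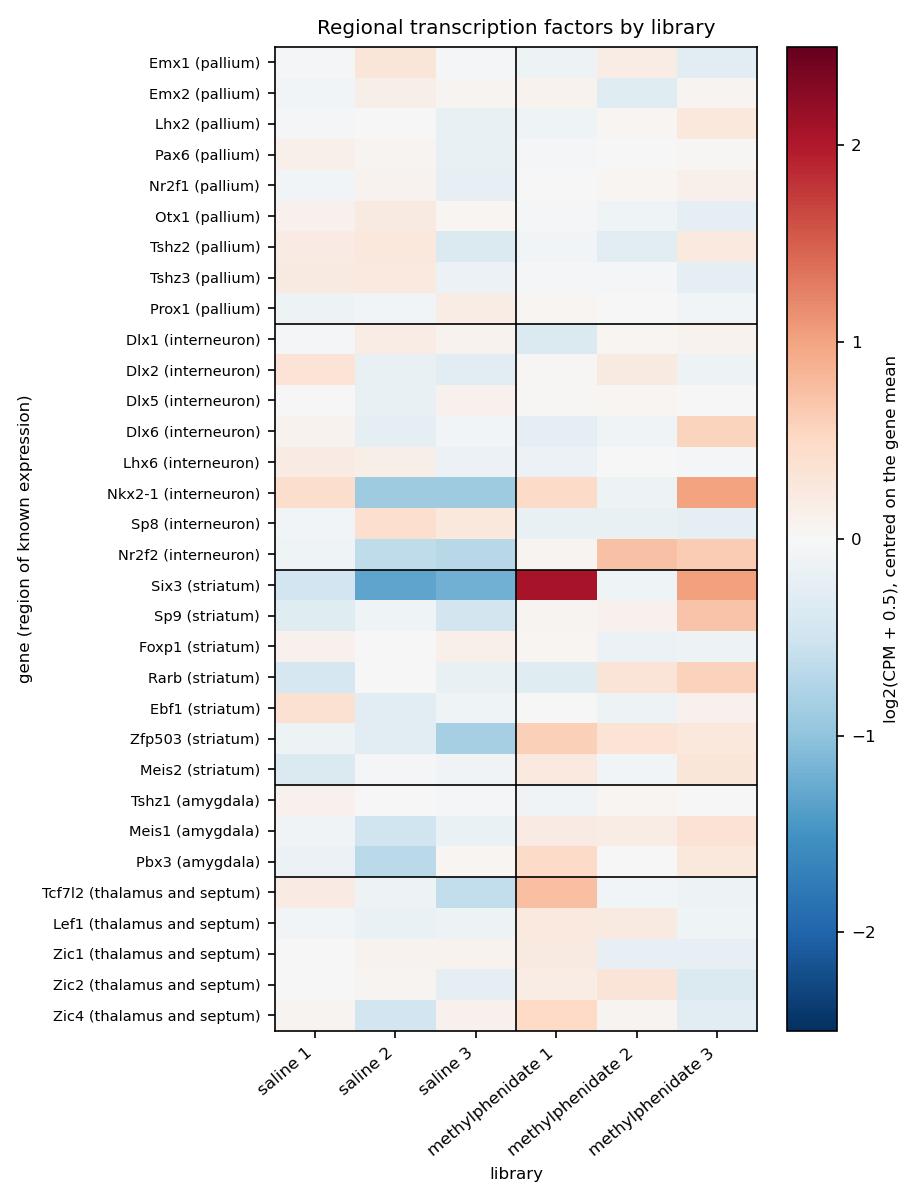
Log2(CPM + 0.5) of each tested factor in each library, centred on the mean of the gene over 6 libraries (red above, blue below), with lines between regions and between lineages. Six3 is the strongest row, the thalamic and septal rows are mostly red in methylphenidate replicate 1, and the pallial rows stay near 0.

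The 3 methylphenidate libraries thus differed in which regional factors were high. Replicate 1 had the highest Six3, Zfp503, Pbx3 and Tcf7l2, replicate 2 the highest Nr2f2, Otp and Zic2, and replicate 3 the highest Sp9, Dlx6, Rarb, Meis2, Meis1 and Nkx2-1. Averaged over the striatal factors as centred log2(CPM + 0.5), replicates 1 to 3 stood at 0.39, 0.04 and 0.41. Saline replicates 1 to 3 stood at -0.17, -0.28 and -0.39. Six3 held the largest striatal values in methylphenidate replicates 1 and 3, at 2.07 and 1.03, and had -0.12 in replicate 2. The thalamic and septal mean was 0.39, 0.07 and -0.22 in methylphenidate replicates 1 to 3 and 0.04, -0.12 and -0.16 in saline replicates 1 to 3. The pallial mean lay between -0.09 and 0.14 in all 6 libraries. Over the 32 factors, a methylphenidate library was the highest of the 6 in 17 and a saline library the lowest in 20, where these shares were 50% and 50.2% of all genes tested.

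Markers that are not transcription factors were read beside these levels. Of 17 tested markers of striatal projection neurons, 16 had a fold change above 0, where 50.3% of all genes tested did, and 9 had non-overlapping groups, all above, where 6.97% of all genes lay above, with a median log2 fold change of 0.90 and 0 past the threshold over all genes. Their mean was 0.53, -0.12 and 1.06 in methylphenidate replicates 1 to 3 and -0.16, -0.61 and -0.71 in saline replicates 1 to 3. The mean of the striatal factors had the same lowest library within the methylphenidate lineage, replicate 2, as these markers. That mean leaned on Six3, at 2.07, -0.12 and 1.03 in methylphenidate replicates 1 to 3. Within that lineage Sp9 and Rarb were instead lowest in replicate 1, and Zfp503 in replicate 3. Six3 was highest in replicate 1, at 7.54 against 3.42 CPM in replicate 3, while Syndig1l, the striatal marker of smallest p, had 14.7 CPM in replicate 1 and 33.8 CPM in replicate 3. Markers of cholinergic neurons of the basal forebrain had a mean of 0.49, 0.08 and 1.07 in methylphenidate replicates 1 to 3 and -0.20, -0.83 and -0.61 in saline replicates 1 to 3. Nkx2-1 was highest in methylphenidate replicate 3 and, within the saline lineage, in replicate 1, as was the mean of these markers. Of 11 hypothalamic markers, 6 passed the filter on low counts, and the summed level of the 11 was 5.47 to 8.31 CPM in the saline and 21.3, 26.0 and 41.9 CPM in methylphenidate replicates 1 to 3. Most of the methylphenidate sums came from Baiap3 and, in replicate 3, Pomc. Baiap3 had 13.6, 17.2 and 15.9 CPM in methylphenidate replicates 1 to 3 and 1.72 to 4.61 CPM in the saline lineage. Pomc had 19.4 CPM in methylphenidate replicate 3 and 1.49 to 2.58 CPM in the other libraries. The 6 tested all had a fold change above 0, with a median log2 fold change of 2.06 and 0 past the threshold. The 11 thalamic markers had a mean of 0.33, 0.00 and 0.00 in methylphenidate replicates 1 to 3. In saline replicates 1 to 3 it was -0.07, -0.10 and -0.15. Their mean was highest in methylphenidate replicate 1, as was that of the thalamic and septal factors. It leaned on Prkcd, at 32.8 CPM in that library and 7.80 to 13.5 CPM in the others. The 2 of smallest p, Calb2 (log2 fold change 0.84, s.e. 0.18) and Ntng1 (0.41, s.e. 0.14), were instead highest in methylphenidate replicate 2. Whether the markers of these lists and the regional factors share a source was not tested.

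**Figure D5:**
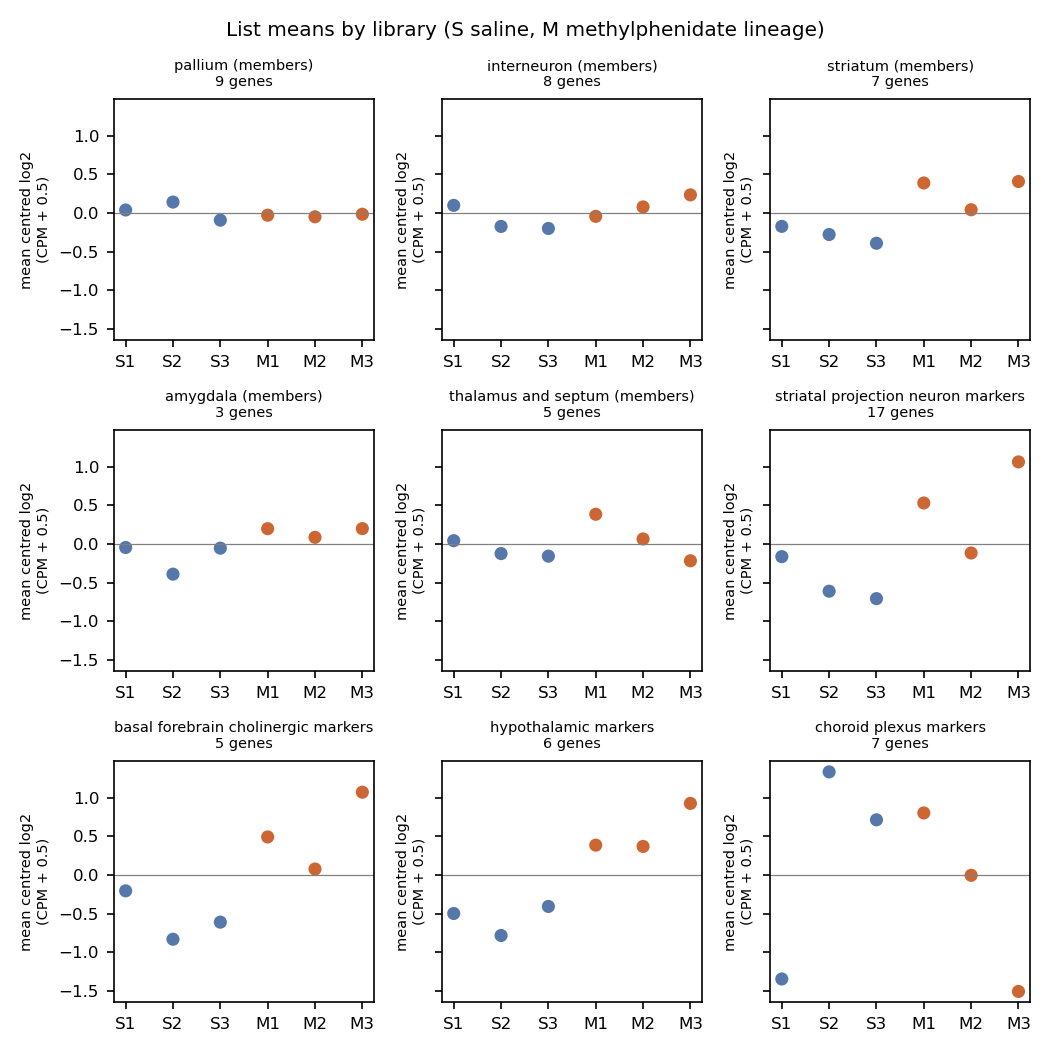
Mean centred log2(CPM + 0.5) per library of 5 regional groups of factors and of 4 marker lists (S saline, M methylphenidate lineage, numbers give the replicate), with the number of genes above each panel. The striatal factors stand at 0.39, 0.04 and 0.41 in M1 to M3, the striatal projection neuron markers at 0.53, -0.12 and 1.06, and the choroid plexus markers vary within both lineages.

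Other regional transcription factors, from a list of 30 that are not in the set, had mostly negative fitted values. Of 23 tested, 4 had a fold change above 0 and 19 below, with a median log2 fold change of -0.17 and 0 past the threshold. At an unadjusted p under 0.05 there were 2 higher and 7 lower, where 4.20% and 3.31% of all genes were, and 2 lay above and 5 below without overlap, where 6.97% and 6.51% of all genes did. The 2 higher, named after their values were seen, were Bcl11b, a zinc finger factor of deep-layer cortical and striatal neurons, with a log2 fold change of 0.52 (s.e. 0.14), and Sox11, a factor of immature neurons, with one of 0.42 (s.e. 0.12). The member of smallest p was Cux1, a factor of upper-layer cortical neurons. It had 99.9, 102.3 and 101.5 CPM in the saline libraries and 86.3, 82.9 and 73.4 CPM in the methylphenidate libraries (fitted log2 fold change -0.32, s.e. 0.07, adjusted p by edgeR = 0.247). It was lowest in methylphenidate replicate 3. The 9 pallial factors of the set had log2 fold changes between -0.27 and 0.13, and whether they differ from Cux1 was not tested.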

How the data were processed

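Per the labels' protocols, poly(A) RNA of cerebral cortex was sequenced from strand-marking libraries. The authors deposited raw counts for each Ensembl gene, as whole numbers, and each library has its own column. HISAT2 2.2.1, StringTie 2.2.1, fastp 0.23.4 and bcl2fastq 2.19 are named, without roles, in the submitters' processing notes, as is the build GRCm39. The sources used here do not give the annotation, the strand setting or the treatment of multimapped reads.

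Counts of the 6 libraries, 23896752 to 28120640 in total, were tested with edgeR 4.0.16 in R 4.3.3 (filterByExpr at its defaults, TMM scaling, quasi-likelihood test, group as the only term, two-sided, Benjamini-Hochberg adjustment over 18327 genes). A standard error is the log2 fold change over the root of F, and its 95% interval is unadjusted. List means use log2(CPM + 0.5). Exon lengths and overlapping genes came from GENCODE M21 on GRCm38, another build, matched by Ensembl identifier, and promoters from RefSeq on GRCm38.p6. Alternatives were DESeq2 1.42.0, limma-voom (limma 3.58.1), other scalings and filters, a replicate block and leaving out each library.

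The genes and lists were chosen with earlier results of these data known. Values in every library were given for factors with non-overlapping groups or an unadjusted p under 0.05 and for the 2 of highest mean CPM in each region. Marker lists gave up to 2 genes of smallest p. Other genes and values were added after they were seen, and not every gene chosen by this rule is reported here. The fit was tested on simulated data. The sum of rows for a repeated symbol did not apply, since each factor had 1 row.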

Additional observations from a re-analysis of the deposited data

How the results depend on the processing

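The count of factors past the threshold was 0 with edgeR under each scaling, filter, replicate block and left-out library, and 0 with limma-voom, but 2 with DESeq2. Over all genes it was 5, and 10 with total counts, 3 with no filter, 2 with the replicate block, 152 with DESeq2, and 2 to 26 when 1 library was left out. Without 1 library, the median log2 fold change ranged from 0.26 to 0.72 in the striatal group and from 0.045 to 0.38 in the thalamic and septal group. The count of factors with non-overlapping groups, 7 under each scaling, rose to at most 13 (8 above and 5 below, without saline replicate 3), where a group of 2 separates more easily and 12.4% and 12.1% of all genes lay above and below. The sign of the log2 fold change was the same in every alternative for 21 of the 32 factors. Same-numbered libraries did not deviate together, with correlations of -0.06, 0.10 and -0.02 across genes, so the replicate number was not taken to pair them. Depth limits the factors with few counts in some libraries, among them Sim1, Otp, Six3 and Nkx2-1, the last of which a stricter filter removed.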

Other observations

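Further regional transcription factors, from the list of 30 not in the set, lay below the filter on low counts and were not tested. All of these are named here, and they were described after their values were seen. Isl1, a LIM homeobox factor of striatal direct pathway and cholinergic neurons, had 9, 3 and 0 counts in saline replicates 1 to 3 against 19, 11 and 19 in methylphenidate replicates 1 to 3. Lhx8, a factor of basal forebrain cholinergic neurons, had 4, 0 and 0 counts in the saline and 9, 0 and 20 in the methylphenidate libraries, and was highest in replicate 3, as was Nkx2-1. Lhx9, a factor of the thalamus and amygdala, had 4, 0 and 0 counts in the saline and 4, 33 and 12 in the methylphenidate libraries, and was highest in replicate 2, as was Otp. Gsx2, a factor of progenitors of the lateral ganglionic eminence, had 0, 0 and 2 counts in the saline and 7, 11 and 7 in the methylphenidate libraries. Gbx2 had 0, 2 and 2 counts in the saline and 4, 4 and 3 in the methylphenidate libraries. Eomes had 0, 2 and 0 counts in the saline and 2, 4 and 9 in the methylphenidate libraries. Lhx1 went the other way, with 2, 0 and 0 counts in the saline and 0 in each methylphenidate library. With counts this low no fold is given.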
